A study of Oryctolagus cuniculus with 54 samples.

Results

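The canalicular phase of lung development in the rabbit was followed here between 2 time points, day 25 (F25) and day 27 (F27) of gestation. The comparison used every run 1 library of these time points, which is 3 libraries of F25 (animals 3, 13 and 18) and 3 of F27 (animals 1, 7 and 11), or 6 of the 54 libraries of the series. All were total right lung homogenates of New Zealand White fetuses, each pup from a different dam at its time point, delivered by C-section with the lung taken at once so that breathing was avoided where possible. RNA was read from the 3′ end of transcripts (QuantSeq). The 6 libraries held 5771693 to 6524966 counts, with 15576 to 15958 genes detected in each of the 12 run 1 fetal libraries, and the 10 most abundant genes took 7.69% to 11.9% of the counts of a library.

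In the canalicular phase the airways lengthen and widen, the mesenchyme between them thins, and capillaries come to lie close to the epithelium. Epithelial cells of the future gas exchange region begin to separate into the flat cells that will line the air spaces and the cells that will secrete surfactant. The saccular phase follows, sampled here at F28 and F29, in which the distal air spaces enlarge before birth. The paper's dates put F27 at the boundary of the canalicular and saccular phases. They put F23, grouped below with the pseudoglandular phase, at its boundary with the canalicular phase. In a homogenate, a change in the number of cells of one type and a change in RNA per cell cannot be told apart. Genes are given by their Ensembl identifier, since the deposited table does not pair identifiers with names and 0 of its 29587 identifiers matched the gene tables used here. The labelled tissue was therefore not checked against marker genes.

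A single gene passed the test between F25 and F27. Many small differences lay below it, and they leaned in the direction in which the postnatal lung differs from the pseudoglandular lung. Of 14130 genes tested with edgeR's quasi-likelihood test, 1 (0.00708%) was called, by a fold change of more than 2 with a Benjamini-Hochberg adjusted p no higher than 0.05, and it was higher at F27. At an unadjusted p under 0.05 there were 1910 genes (13.5%), of which 1066 (7.54%) were higher at F27 and 844 (5.97%) lower. This split depended on the scaling, since with library sizes alone, which moved the median log2 difference of all genes to -0.069, 703 were higher and 1275 lower. The lowest value of one time point lay above the highest of the other in 2368 genes (16.8%), 1144 (8.1%) of them higher and 1224 (8.66%) lower at F27. For a gene with no difference, 3 animals against 3 separate fully with a probability of 0.1 if all arrangements are equally likely. Many of the 2368 genes would thus be found without any difference. With the same libraries and minimum CPM, limma-voom called 0 genes, with 1862 at an unadjusted p under 0.05. DESeq2 called 124 (0.878%, 95 higher and 29 lower). Of these, 112 did not overlap between the time points, as their choice by p and fold in the same libraries makes likely. It left 3865 of the 14130 genes with no adjusted p, and these could not be called. In edgeR, library sizes alone gave 2 called genes (0.0142%), no filter 89 (0.434%), a stricter filter 5 (0.0508%), a fit of only the 6 libraries 2 other genes (0.0152%) and a fit of all 18 run 1 libraries 4 (0.0274%).

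The called gene was ENSOCUG00000002944. Its level in CPM, the count scaled to the size of the library, was 13.3, 20.2 and 17.1 in F25 animals 3, 13 and 18, and 60.4, 68.1 and 144.3 in F27 animals 1, 7 and 11. Every F27 value was above every F25 value, and the F27 animals were themselves spread, with animal 11 well above the others. The means were 16.9 ± 3.46 CPM at F25 and 90.9 ± 46.4 CPM at F27 (SD, n = 3), a ratio of 5.39. The gene rose by 2.43 on the log2 scale (SE 0.295, adjusted p = 0.02159, edgeR). It moved from rank 6725 to rank 2365 in mean CPM among the genes tested. The call was lost with limma-voom (adjusted p = 0.05344), in an edgeR fit of only the 6 libraries (0.1279) and in the edgeR fit without F25 animal 18 (0.1221), and the adjusted p ranged from 1.376e-14 to 0.1279 over 14 alternatives.

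The level of ENSOCUG00000002944 stood higher again in the saccular phase. It was 155.8, 199.9 and 137.9 CPM in F28 animals 2, 7 and 9 and 245.7, 282.8 and 250.8 CPM in F29 animals 2, 7 and 11. All F28 and F29 values but the one of F28 animal 9 were above the highest F27 value. The edgeR differences between neighbouring time points did not pass the test, at 0.855 on the log2 scale from F27 to F28 (adjusted p = 0.2174) and 0.66 from F28 to F29 (adjusted p = 0.7009). In the earlier pseudoglandular phase, read in run 3, the gene had 0.439 to 0.865 CPM at F20 and 0.720 to 2.84 CPM at F23. The log2 difference of 1.499 from F20 to F23 did not pass the test (adjusted p = 0.1007, edgeR). Levels of runs 1 and 3 were scaled separately and are not compared.

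**Figure D1:**
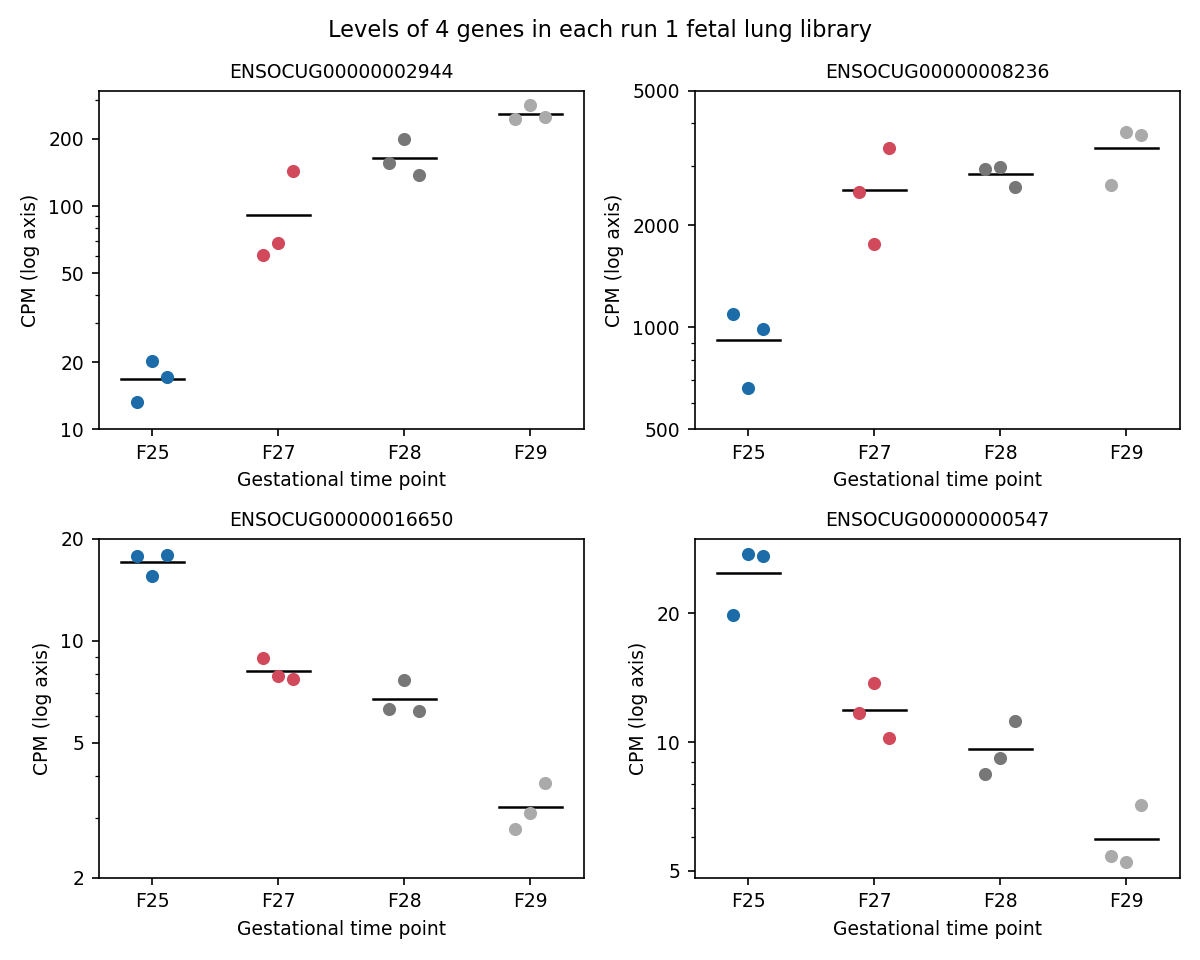
Levels in CPM (log axis) of the called gene, ENSOCUG00000002944, and of 3 genes that were not called, in each run 1 fetal library at F25, F27, F28 and F29. Points are animals and the line is the mean of 3 animals. The F25 and F27 points do not overlap in any panel because the genes were chosen for this.

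ENSOCUG00000008236 had the smallest p after the called gene among genes higher at F27 with a fold above 2, no overlap between the time points and a mean of at least 5 CPM. It and the genes lower at F27 described next were chosen by that rule after their values were seen. Its level was 1097, 664 and 990 CPM in F25 animals 3, 13 and 18, and 2502, 1765 and 3372 CPM in F27 animals 1, 7 and 11. The means were 917 ± 225 and 2546 ± 805 CPM (SD, n = 3), a ratio of 2.78, and its place in the order of mean levels went from 105 to 23. The log2 difference of 1.47 (SE 0.229) did not pass the test (adjusted p = 0.06531, edgeR). Its level was 2600 to 2974 CPM at F28 and 2637 to 3783 CPM at F29. From F20 to F23, a comparison with no library in common, the same gene rose by 1.54 on the log2 scale (adjusted p = 0.003549, edgeR).

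For the genes lower at F27, none was called. ENSOCUG00000016650 had 17.9, 15.5 and 17.9 CPM at F25 and 8.91, 7.86 and 7.71 CPM at F27, with means of 17.1 ± 1.36 and 8.16 ± 0.655 CPM (SD, n = 3). The animals of each time point lay close together. The log2 difference was -1.06 (SE 0.189, adjusted p = 0.07186, edgeR), and the level was 6.23 to 7.70 CPM at F28 and 2.79 to 3.80 CPM at F29. ENSOCUG00000000547 had 19.8, 27.5 and 27.2 CPM at F25 and 11.7, 13.8 and 10.2 CPM at F27, with a log2 difference of -1.06 (SE 0.199, adjusted p = 0.07186, edgeR). It continued to 8.45 to 11.2 CPM at F28 and 5.23 to 7.13 CPM at F29. Both genes thus had their lowest values at F29, and neither passed the test from F28 to F29 (adjusted p = 0.3473 and 0.5714, edgeR). From F20 to F23 they did not pass it either, with log2 differences of -0.419 (adjusted p = 0.1532) and -0.527 (adjusted p = 0.1235, edgeR).

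The size of the change and the precision depended on the level of a gene. The median absolute log2 difference over all genes was 0.23, and the median SE was 0.24. Below 1 CPM the median SE was 0.91, and 673 of 2153 genes (31.3%) differed more than 2-fold in the estimate. Between 100 and 1000 CPM the SE was 0.11, and 15 of 2079 genes differed more than 2-fold, 14 of them higher at F27. At 1000 CPM or more, 2 of 94 genes differed more than 2-fold. In this class 30 genes (31.9%, against 13.5% of all genes tested) had an unadjusted p under 0.05, 26 higher and 4 lower at F27. Among abundant transcripts the differences were thus mostly under 2-fold. Genes with no count at F25 and at least 3 counts in every F27 animal numbered 3, and 1 gene had the reverse pattern. Their summed counts were at most 44 and 9.

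**Figure D2:**
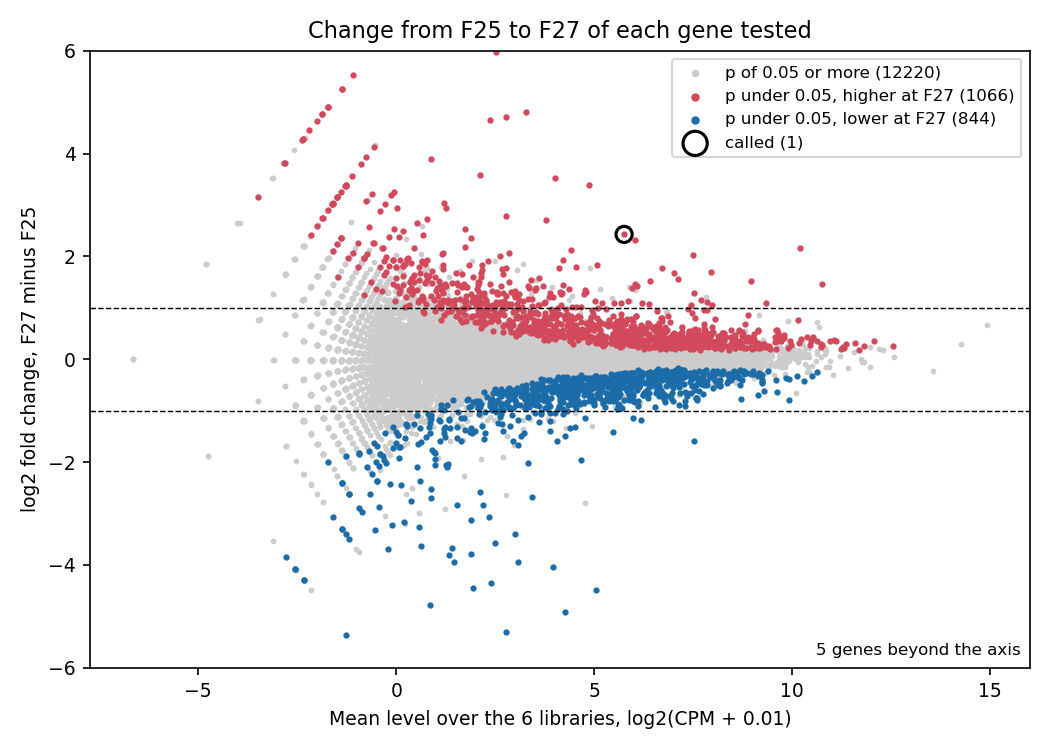
The log2 fold change of F27 minus F25 (y axis) of each of 14130 genes against its mean level over the 6 libraries, as log2(CPM + 0.01) (x axis). Dashed lines mark a 2-fold change, 5 genes lie beyond the axis, and the spread of the points narrows toward abundant genes.

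To place F25 and F27 along the course of lung development, a reference was made from run 3, which holds none of the libraries compared. Genes were called between 8 pseudoglandular libraries (F20 and F23) and 7 alveolar ones (T37 and T42), with 2179 higher and 1449 lower after birth among 14365 tested. The F20 and F23 libraries were of whole fetal lungs. The T37 and T42 pups had been born naturally at term and kept with their mothers in room air. Age, birth, air breathing, rearing and the part of the lung thus differ together in this reference and cannot be told apart. Of these, 2003 late genes and 1229 early genes were tested between F25 and F27. Among the late genes, 579 (28.9%) had an unadjusted p under 0.05 and were higher at F27, and 20 (0.999%) were lower, against 7.54% and 5.97% of all genes tested. Among the early genes, 12 (0.976%) were higher and 339 (27.6%) lower. With library sizes alone 447 late genes were higher and 396 early genes lower, where 703 of all genes were higher and 1275 lower. Both set counts thus moved in the direction of the overall shift under this scaling. The median log2 difference was 0.385 for late genes, -0.381 for early genes and 0 for all genes. These counts rest on an unadjusted threshold, so that they describe the direction of a set and call no single gene. The median level was 5.56 CPM for late genes, 6.07 CPM for early genes and 14.7 CPM for all genes.

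**Figure D3:**
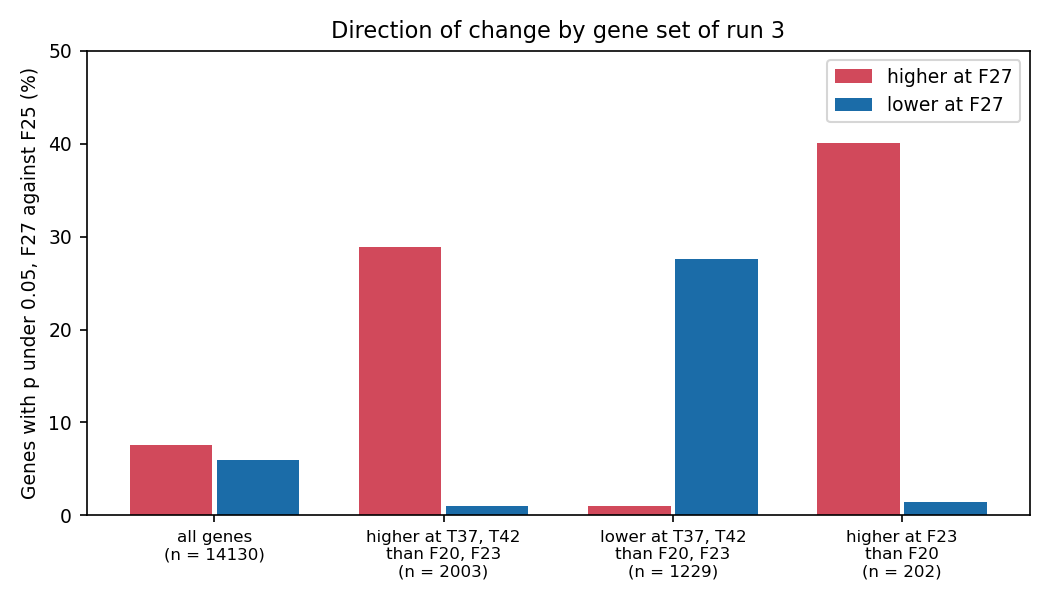
Percent of genes (y axis, from 0) with an unadjusted p under 0.05 between F25 and F27, higher (red) or lower (blue) at F27, for all genes tested and for 3 gene sets called in run 3 libraries. The red bar holds 28.9% and the blue bar 0.999% of the late genes. For the early genes the red bar holds 0.976% and the blue bar 27.6%.

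The step from F20 to F23, also of run 3, gave 2 smaller sets. They rest on the same 8 libraries as the early side of the reference and may share genes with it, so they are not a separate check. Of 202 genes called higher at F23 than at F20, 81 (40.1%) had an unadjusted p under 0.05 and were higher at F27, and 3 (1.49%) were lower, against 7.54% and 5.97% of all genes tested. Of the 45 genes called lower at F23, 3 (6.67%) were higher and 4 (8.89%) lower at F27, close to the shares of all genes at this number of genes. The median log2 difference was 0.388 for the 202 genes and -0.215 for the 45, against 0 for all genes. Seen from the other side, 1066 genes higher at F27 with an unadjusted p under 0.05 were higher at F29 than at F28 in 70.9% of cases, against 50.4% of all genes. The 844 lower genes were higher at F29 in 24.6%. F25, F27, F28 and F29 are separate animals, so that this share compares steps with no library in common.

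A position on the reference was computed for each animal as the mean log2 CPM of the late genes minus that of the early genes. It was -0.233, -0.491 and -0.541 in F25 animals 3, 13 and 18, and 0.033, 0.271 and 0.643 in F27 animals 1, 7 and 11. The time points did not overlap, and F27 animal 1 lay nearest to F25. The means were -0.42 ± 0.17 and 0.32 ± 0.31 (SD, n = 3), a difference of 0.74 with an exact two-sided permutation p of 0.1, which is the smallest that 3 animals against 3 can give. At F28 the position was 1.03 ± 0.08 and at F29 1.34 ± 0.15 (SD, n = 3), and every F28 animal lay above F27 animal 11. The late genes took 11.6%, 10.1% and 11.2% of the counts in F25 animals 3, 13 and 18 and 12.7%, 12.9% and 15% in F27 animals 1, 7 and 11. The early genes took 5.46% to 5.76% at F25 and 3.62% to 4.44% at F27, and neither share overlapped between the time points.

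**Figure D4:**
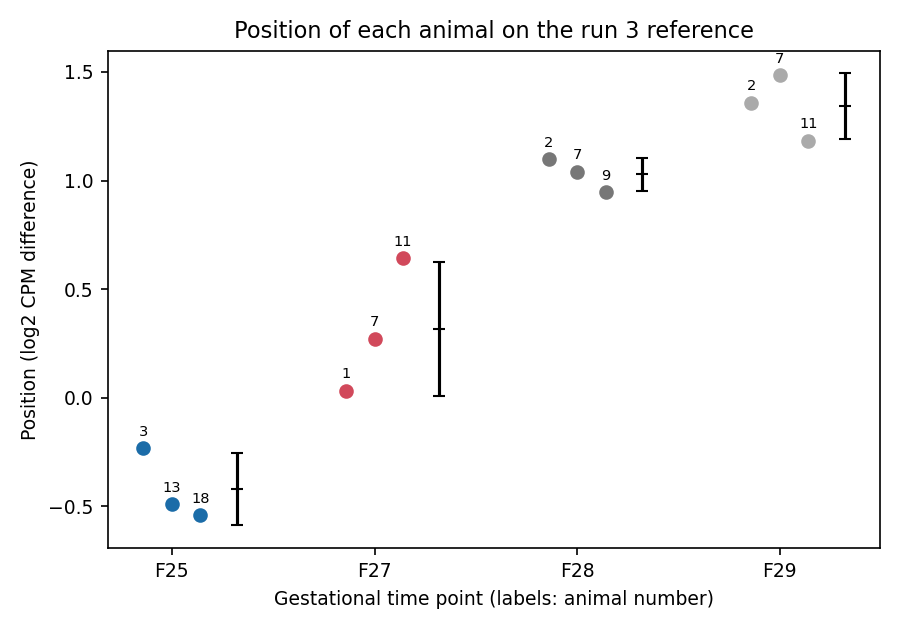
Position of each animal (points, labelled with the animal number) on the run 3 reference, as the mean log2 CPM of 2003 late genes minus that of 1229 early genes, at F25, F27, F28 and F29. The bar gives the mean and SD of 3 animals. F25 animals lie from -0.541 to -0.233 and F27 animals from 0.033 to 0.643.

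A wider group of 42 genes (0.297% of those tested) differed more than 2-fold with an adjusted p no higher than 0.1, a threshold set after the values were seen. Of these, 33 (0.234%) were higher and 9 (0.0637%) lower at F27, and all 42 did not overlap between the time points, as their choice by p makes likely. Of the 32 higher genes tested in the reference, 31 were late genes, and 7 of the 9 lower genes were early genes, where 14.9% of all genes tested in both were late and 9.15% early. The median log2 CPM of the 33 stood 1.46 above F25 at F27, 2.21 at F28 and 2.41 at F29. These values share the F25 libraries on which the genes were chosen, so that an offset in the same direction at F28 and F29 is partly set by the choice. For the 9 lower genes it was -1.34, -1.45 and -2.16. From F28 to F29, 26 of the 33 were higher (78.8%) and 0 of the 9, against 50.4% of all genes.

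**Figure D5:**
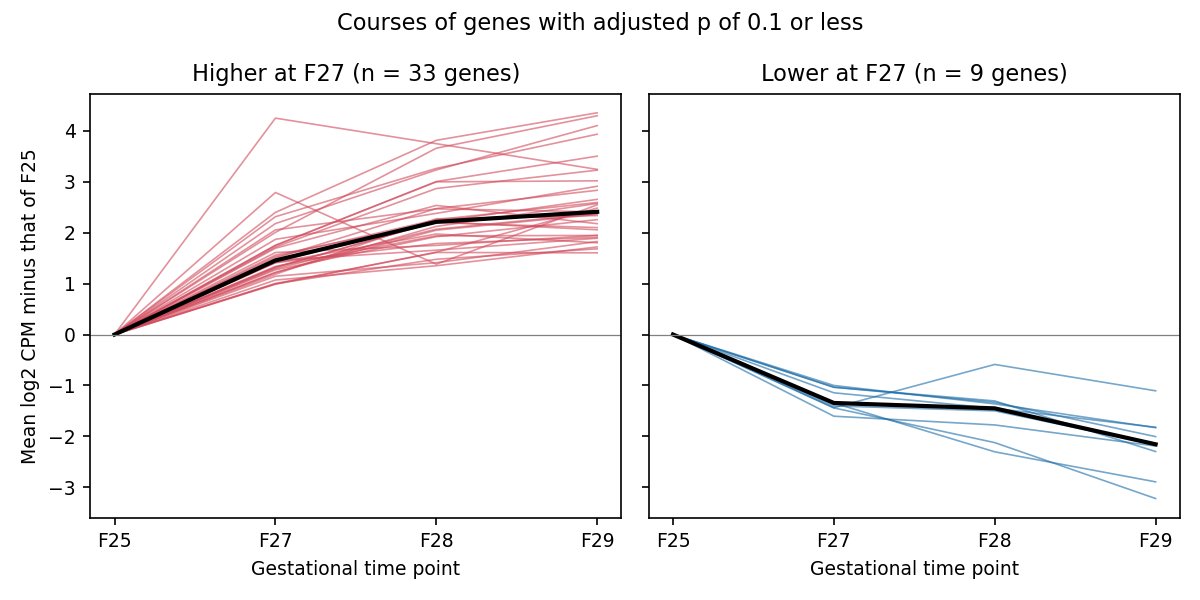
Mean log2 CPM minus that of F25 (y axis) at each time point for the 33 genes higher (left) and 9 genes lower (right) at F27 that made up this group. Thin lines are genes and the black line is the median, which reaches 2.41 and -2.16 at F29.

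Within a time point the animals differed almost as much as between time points. The root mean square distance in log2 CPM over all genes tested was 0.703 on average within F25 (0.634 to 0.745), 0.687 within F27 (0.667 to 0.708) and 0.731 between them (0.64 to 0.796). F27 animal 1 was nearer to F25 animal 13 (0.64) than to F27 animals 7 (0.667) and 11 (0.708), and F27 animal 11 was nearer to F28 animal 2 (0.654) than to F27 animal 7 (0.686). In late genes, F27 animal 11 held the highest F27 value in 48.2% and F27 animal 1 the lowest in 50.6%, against 34.8% and 35.9% of all genes. F25 animal 3 held the highest F25 value in 53.4% of late genes, against 38.7% of all genes.

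F25 animal 3 stood apart in another way. It exceeded all 11 other run 1 fetal libraries by more than 4-fold in 28 of 12065 genes with a mean of at least 1 CPM, against 0 to 8 genes in the others. Leaving out single animals moved the count of called genes. Without F25 animal 3 it was 49 (0.352%), without F25 animal 13 it was 4 (0.0284%) and without F25 animal 18 it was 0, with 1485 genes then at an unadjusted p under 0.05. Without F27 animal 1 it was 30 (0.214%), without F27 animal 7 it was 10 (0.0711%) and without F27 animal 11 it was 2 (0.0142%). F25 animal 13 was also read in run 3, where 5147 genes (36.4%) differed more than 2-fold from its run 1 library. Only run 1 libraries were compared.

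The step from F25 to F27 spans more days than the next ones, and the counts are set side by side only. From F27 to F28, 4 genes were called (3 higher and 1 lower), with 1674 (11.8%) at an unadjusted p under 0.05. From F28 to F29 0 were called, with 897 (6.35%). The difference between the step from F25 to F27 and that from F28 to F29, tested itself, called 0 genes. At an unadjusted p under 0.05 there were 838 (5.93%), and the smallest adjusted p was 0.1902 (edgeR). For ENSOCUG00000002944 this difference was 1.77 on the log2 scale (adjusted p = 0.7991).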

How the data were processed

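The authors deposited one table of raw read counts per gene for the 54 libraries. As their methods state, reads were trimmed with BBduk, aligned with STAR to OryCun2.0 and counted by HTSeq-count with gene models of Ensembl. Whether the table includes reads that a custom script assigned to unannotated 3′ UTRs is not stated. Versions are not given in the sources used here. Each column was mapped to its animal from the labels, and 0 columns were left without a sample. No library duplicated another (0 pairs).

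Counts were fitted in edgeR 4.0.16 (R 4.3.3) over the 12 run 1 libraries of F25, F27, F28 and F29, with TMM scaling, a minimum of 0.5 CPM in 3 or more libraries, a quasi-likelihood test (8 residual degrees of freedom) and Benjamini-Hochberg adjustment. In this fit a p-value sets a difference against the spread between animals of a time point, estimated over all 12 libraries and not the compared ones alone. limma 3.58.1 (voom), DESeq2 1.42.0, glmTreat, other scalings, filters and fits were alternatives. Log2 CPM used a prior count of 2. The scripts were tested on simulated counts with planted changes well above the median difference seen here. Power for small differences was not tested. The genes, lists and tests were chosen with earlier results of these data known, and the run 3 reference, the position and the 0.1 threshold were added after seeing the data. Gene lists by symbol and sequences were not used, because 0 identifiers matched. The rule for named genes took at most 2 identifiers in each direction, by smallest p among non-overlapping genes with a fold above 2 and at least 5 CPM.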

Additional observations from a re-analysis of the deposited data

How the results depend on the processing

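The number of genes called depended on the settings, while the difference in position kept its sign when any 1 animal was left out. Against 1 gene called, limma-voom gave 0, DESeq2 124, library sizes alone 2, testing unfiltered genes 89, a minimum of 10 counts per library 5, only the 6 libraries 2, all 18 run 1 libraries 4 and glmTreat 0 (465 genes at an unadjusted p under 0.05). Leaving out 1 animal gave 0 to 49. By adjusted p alone, where the main count was 1, the counts were 0, 382, 2, 166, 6, 2 and 4 for limma-voom, DESeq2, library sizes alone, unfiltered genes, the minimum of 10 counts, 6 libraries and 18 libraries, and 0 to 58 without 1 animal. The cause was not tested. DESeq2 left 3865 adjusted p-values as NA. Late genes higher at F27 (579) ranged from 388 to 639 without 1 animal. Early genes lower at F27 (339) ranged from 225 to 345, with 225 without F27 animal 11, and were 201 with all 18 run 1 libraries. The totals over all genes tested moved too. Without 1 animal they ranged from 692 to 1223 higher and from 564 to 984 lower at F27. With all 18 run 1 libraries 595 were lower, against 844 in the main fit. Counts of reference genes in the opposite direction are not given for these settings. The difference in position ranged from 0.574 to 0.879 without 1 animal. The mean distances within F25, within F27 and between them were 2.298, 2.03 and 2.173 over the 500 most variable genes and 0.423, 0.462 and 0.493 over genes with 10 or more counts in each library, so that over the variable genes F25 animals differed more among themselves than from F27. The log2 difference of ENSOCUG00000002944 ranged from 1.927 to 2.654 over 14 alternatives and passed in 11. The difference of ENSOCUG00000008236 passed in 6 of 14, that of ENSOCUG00000016650 in 2 and that of ENSOCUG00000000547 in 3, and 0 reversed. No paired analysis was possible because each fetus was taken at a single time point and the labels name no dam. Depth limits genes below 1 CPM, where the median SE was 0.91.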
